A study of Mus musculus with 24 samples.

Results

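Parvalbumin (PV) interneurons of the mouse primary motor cortex were picked from single-cell RNA libraries by their own transcripts. A cell barcode entered with at least 1000 unique molecular identifiers (UMIs, each a counted RNA molecule), at least 500 genes and at most 20% mitochondrial UMIs. It was kept as a PV cell if Gad1 plus Gad2 reached 2 UMIs, Slc17a7 did not exceed 1 UMI, Pvalb reached 2 UMIs and Pvalb exceeded both Sst and Vip. In all, 237 cells met the rule, 0.471% of the 50361 motor cortex cells that passed the cell filters. Over the 23 of 24 libraries of the study that had a count matrix here, 103715 cells passed. The same rule with Sst or Vip in the place of Pvalb gave 574 Sst cells and 1735 Vip cells, the interneuron classes used for comparison. The values of these 6 genes chose the cells, so their levels are given as a description with no test.

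The study asked how learning a forelimb reach changes cells of the motor cortex. All mice of these libraries were Fos-CreER::Ai9, in which a recombinase made by active cells and activated by 4-hydroxytamoxifen (4-OHT) switches on a tdTomato reporter. The reporter marks cells that were active around the time of the drug, and its transcript carries a WPRE element that was counted as a feature of its own. Mice of the early group were trained for 2 days and mice of the late group for 8 days, and the control mice were given 4-OHT but no training. Tissue was taken 3 days after labelling in every group, so all groups carried both the alleles and the drug. Each stage had 2 pools of 2 mice. In the trained pools the hemispheres contralateral and ipsilateral to the reaching limb, and in the control pools the left and right hemispheres, were separate libraries. The pool was the replicate, and the pool numbers below are names that pair nothing across stages.

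Cortical interneurons release GABA, which is made by the glutamate decarboxylases Gad1 and Gad2, and PV cells are the class that fires fastest. Their basket and chandelier forms contact the soma, proximal dendrites and axon initial segment of pyramidal neurons. Fast firing rests on Kv3 potassium channels that repolarise the membrane quickly, on synaptotagmin 2 for fast release, and on a high rate of mitochondrial respiration. Many PV cells are wrapped in a perineuronal net of chondroitin sulphate proteoglycans, whose assembly is tied to cortical plasticity. PV and Sst cells arise from the medial ganglionic eminence under Lhx6 and Sox6, and Vip cells from the caudal eminence with Prox1 and Adarb2.

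The promoters of Pvalb, a gene of the selection rule, and of 3 genes higher in PV cells in the results below are printed here from RefSeq (GRCm38.p6), 300 bases each and 5′ to 3′ on the strand of the gene, with capitals for a match to a searched motif. Pvalb (the calcium buffer that names the class, chr15:78206351-78206650, minus strand), Tac1 (tachykinin precursor, chr6:7554811-7555110, plus strand), Syt2 (synaptotagmin 2, chr1:134646362-134646661, plus strand) and Kcnc1 (the Kv3.1 channel, chr7:46396218-46396517, plus strand) are shown.
Pvalb: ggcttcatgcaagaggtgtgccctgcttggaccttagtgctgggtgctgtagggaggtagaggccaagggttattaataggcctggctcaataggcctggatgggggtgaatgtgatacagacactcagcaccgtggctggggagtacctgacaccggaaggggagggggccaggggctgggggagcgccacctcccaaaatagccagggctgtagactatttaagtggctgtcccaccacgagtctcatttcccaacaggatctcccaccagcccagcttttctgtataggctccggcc
Tac1: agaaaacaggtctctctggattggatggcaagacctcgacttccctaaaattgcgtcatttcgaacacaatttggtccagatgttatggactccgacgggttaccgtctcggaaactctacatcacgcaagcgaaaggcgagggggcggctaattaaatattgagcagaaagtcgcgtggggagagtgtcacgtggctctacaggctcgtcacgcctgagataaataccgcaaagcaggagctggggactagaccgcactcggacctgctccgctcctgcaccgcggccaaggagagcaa
Syt2: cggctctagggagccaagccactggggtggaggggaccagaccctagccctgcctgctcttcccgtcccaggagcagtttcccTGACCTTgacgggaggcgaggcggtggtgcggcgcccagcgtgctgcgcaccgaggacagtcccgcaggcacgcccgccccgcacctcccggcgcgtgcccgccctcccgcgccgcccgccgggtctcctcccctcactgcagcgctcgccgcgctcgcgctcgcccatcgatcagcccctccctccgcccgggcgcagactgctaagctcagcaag
Kcnc1: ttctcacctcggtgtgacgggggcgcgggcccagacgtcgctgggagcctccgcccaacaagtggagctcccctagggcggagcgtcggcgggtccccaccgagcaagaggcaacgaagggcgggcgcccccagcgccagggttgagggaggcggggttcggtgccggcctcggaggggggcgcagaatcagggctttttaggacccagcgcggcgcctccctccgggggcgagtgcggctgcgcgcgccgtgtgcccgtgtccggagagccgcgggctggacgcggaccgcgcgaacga
The motifs searched on both strands were AAGGTCA (the half-site of oestrogen-related receptors, one of which is encoded by Esrra), TGACGTCA (the cAMP response element) and GGGGCGGGG (a GC box). Syt2 held TGACCTT, which is AAGGTCA on the other strand, and the windows of Pvalb, Tac1 and Kcnc1 held none of the 3 motifs. The table holds a second start for Pvalb and for Syt2, neither of which has a match, and the first start of each is printed. Of 32544 promoter windows of the same length in the table, 4.71% held AAGGTCA, 1.80% held TGACGTCA and 11.5% held GGGGCGGGG. A match is a description of letters and not a bound site.

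Depth and cell numbers differed widely between libraries. The 12 libraries held 541 to 8477 barcodes and 5260446 to 30470621 UMIs, and gave 1 to 45 PV cells each. The left library of control pool 1 stood apart with 541 barcodes and 1 PV cell. The labels name more than 1 kit version without saying which library had which, and shared barcodes placed control pool 1 and late pool 1 in one kit class and the other 4 pools in the other. Among 66 pairs of libraries 1 barcode was shared between PV cells. Replicates were separate pools of mice.

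PV cells were found in every pool, with 24 and 38 cells in the control pools, 32 and 35 in the early pools, and 69 and 39 in the late pools. The median PV cell held 9071 UMIs and 3807 genes. Its Pvalb count ranged from 2 to 189 UMIs with a median of 18, and 162 cells (68.4%) held 10 or more. Summed over the cells of a pool, Pvalb stood at a median of 2141 UMIs per 1000000 UMIs (CPM), with a lowest pool of 1290 (early 1) and a highest of 4172 (late 1). Gad1, the main GABA-synthesising enzyme, was nearly level between pools at 1811 to 1962 CPM. Sst reached 43.3 CPM at most and Vip 11.3 CPM.

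Cells close to the Pvalb threshold were less uniform than those far above it. The 45 cells that met the rest of the rule with 1 Pvalb UMI, just outside, held Lhx6 in 31.1% and Adarb2, a gene of the caudal eminence, in 48.9%. The 15 cells with 2 Pvalb UMIs, just inside, held Lhx6 in 20.0%, Adarb2 in 20.0% and Syt2 in 20.0%. Of the 162 cells with 10 or more, 67.3% held Lhx6, 70.4% held Syt2, 90.7% held Cox6a2 and 0.617% held Adarb2. Median depth also differed, at 5760 UMIs for cells with 2 Pvalb UMIs and 10773 UMIs for cells with 10 or more.

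Expressed as a share of all PV, Sst and Vip cells, PV cells made up 8.96% (Wilson 95% interval 6.09 to 13.0%) and 8.64% (6.36 to 11.6%) in the control pools. They made up 8.21% (5.87 to 11.4%) and 6.58% (4.77 to 9.01%) in the early pools and 14.3% (11.5 to 17.7%) and 9.01% (6.66 to 12.1%) in the late pools. Late pool 1 was the highest, and its interval lay above that of early pools 1 and 2 but overlapped the others. Early pools averaged 7.39% ± 1.15 and late pools 11.7% ± 3.73 against 8.80% ± 0.226 in controls (SD, n = 2 each). The differences of -1.40, 2.85 and, for late against early, 4.25 percentage points each had an exact permutation p of 0.333, two-sided, the smallest that 2 pools against 2 can give. The intervals cover counting error only, and the share also depends on which cells survived dissociation, which was not measured.

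**Figure D1:**
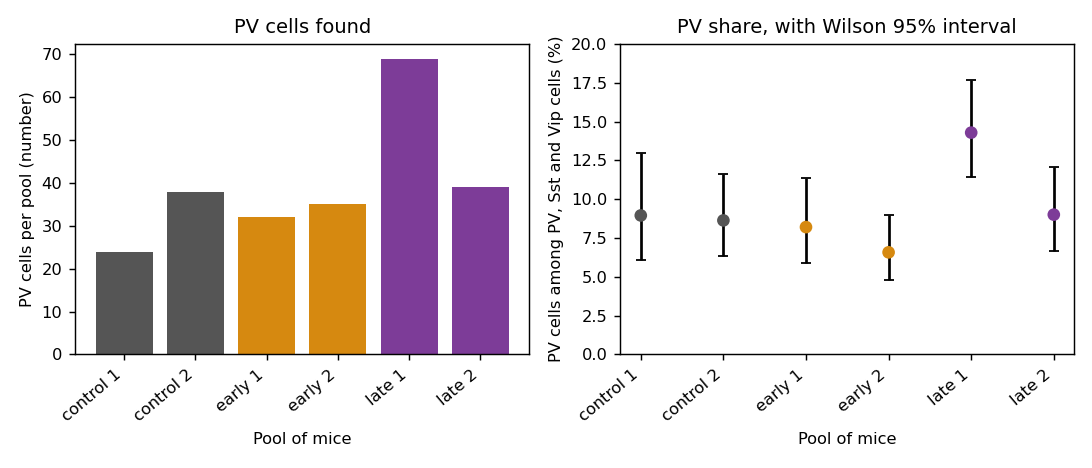
Left, number of PV cells in each of the 6 pools. Right, PV cells as a percentage of PV, Sst and Vip cells per pool, with Wilson 95% intervals as bars. Late pool 1 holds 69 PV cells and a share of 14.3%, above the other 5 pools at 6.58 to 9.01%.

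Genes that the rule did not use included those known for the class, though not all were particular to it. The vesicular GABA transporter Slc32a1 was seen in 96.2% of PV cells and in 0.446% of glutamatergic neurons. Kcnc1 was seen in 97.9% of PV cells and the neuregulin receptor Erbb4 in 94.9%, but Kcnc1 also in 85.2% of Sst and 82.0% of Vip cells. The eminence genes Lhx6 (60.8%, Wilson 95% interval 54.4 to 66.8%) and Sox6 (58.7%) were shared with Sst cells (69.7% and 64.1%) and nearly missing from Vip cells (0.0576% and 0.634%). Syt2 was seen in 54.0% of PV cells, 2.79% of Sst cells and 3.98% of Vip cells, and Cox6a2, a muscle-type subunit of cytochrome c oxidase, in 81.4%, 7.49% and 10.1%. The marker genes of pyramidal neurons Slc17a6, Neurod6, Tbr1 and Neurod2 were seen in 0.422% to 2.53% of PV cells. Nrgn and Camk2a of the same list were seen in 40.9% and 44.3% of PV cells, 34.3% and 50.7% of Sst cells and 98.8% and 90.7% of glutamatergic neurons. Median depths were 9071 UMIs in PV cells, 8272 in Sst cells, 5426 in Vip cells and 7834 in glutamatergic neurons, so detection was not equally likely in each.

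Marker genes of other cell types were present at low summed levels. The 8 pyramidal markers together stood at 129 to 284 CPM in PV pools against 6190 to 9025 CPM in glutamatergic neurons. They include Slc17a7, which is capped in PV cells and chose the glutamatergic neurons, so part of this contrast was set by the selection. The 8 microglial markers stood at 23.5 CPM (control 2) and 28.5 CPM (late 2) in 2 pools and at 176 (control 1), 299 (early 2), 302 (late 1) and 340 CPM (early 1) in the others. In Sst cells the same sum was 71.7 to 301 CPM. Of the 237 PV cells, 14 held 3 or more microglial UMIs, and these 14 carried 81.8% of all microglial UMIs of the class. Oligodendrocyte markers stood at 29.0 to 316 CPM, with late pool 1 the highest, astrocyte markers at 85.5 to 167 CPM and endothelial markers at 3.56 to 140 CPM. Mog, Gfap and Adora2a were at 0 in every PV pool. A doublet caller marked 11 of the 237 PV cells, 5 of them among those 14, and marked cells were kept unless stated.

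PV cells were not alike in the peptides and subtype genes they carried. Tac1, the precursor of substance P, was seen in 63.3% of PV cells (53.1% to 69.6% over pools), the peptide Cck in 78.5% (65.7% to 87.0%), and Npy, which encodes neuropeptide Y, in 42.6% (30.8% to 54.2%). Pthlh, which encodes parathyroid hormone-related protein, was seen in 25.3% (14.3% to 29.2%), tyrosine hydroxylase (Th) in 14.3% (from 1 of 69 cells in late 1 to 8 of 32 in early 1), and the calcium buffer Calb1 in 12.2% (4.17% to 17.9%). Of these 6 genes, Th alone had pools whose Wilson 95% intervals did not overlap.

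Some of these genes were seen in the same cells and others apart. Vipr2 and Unc5b, both used as markers of chandelier cells, were rare, in 9 and 20 of the 237 cells, and 7 of the 9 Vipr2 cells also held Unc5b. Of the 60 cells with Pthlh, 26.7% held Unc5b against 2.26% of cells without it, and 8 of the 9 Vipr2 cells were among those 60. Tac1 and Unc5b were seldom in the same cell. Unc5b was seen in 1 of 150 Tac1 cells (0.667%) and in 19 of the 87 cells without Tac1 (21.8%), although the Tac1 cells were the deeper (median 10054 against 8189 UMIs). No Vipr2 cell held a Tac1 or Syt2 UMI and no Th cell a Pthlh or Calb1 UMI. Taking 3 counts of the total as the limit for a count of 0, 9 and 34 cells allow shares of cells with a UMI of up to 33.3% and 8.82%, which bounds detection and not expression. Tac1 cells more often held Npy (50.7% against 28.7%) and Calb1 (16.7% against 4.60%). These are counts over single cells from 6 pools and carry no test.

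PV cells were then compared with Sst and Vip cells of the same pools, with UMIs summed per pool and class. edgeR's quasi-likelihood test with the pool as a block and Benjamini-Hochberg adjustment called 3268 of 9647 genes (33.9%) between PV and Sst cells, 1556 higher in PV cells (16.1%) and 1712 lower (17.7%), and 41.4% of genes had an unadjusted p under 0.05. Against Vip cells it called 4302 of 10007 genes (43%), 2075 higher (20.7%) and 2227 lower (22.3%), with 50.1% at an unadjusted p under 0.05. Of 9459 genes tested in both, 1071 were higher in PV cells both times, which is 68.8% of the genes higher against Sst cells and 51.6% of those higher against Vip cells. The 999 lower both times were 58.3% and 44.9%. The 2 comparisons share the PV cells. The classes were split by their own RNA, so any gene that runs with Pvalb, Sst or Vip is bound to differ, and the p-values speak of the spread between pools. DESeq2 called 2026 and 3428 genes.

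The genes most distinctly higher in PV than in Sst cells were Tac1, Syt2, the potassium channel partner Kcnip2 and the extrasynaptic GABA receptor subunit Gabrd. Tac1 stood at 594, 996 and 1091 CPM (lowest, median and highest pool) in PV cells and at 29.3, 63.6 and 92.8 CPM in Sst cells. The log2 difference was 3.80 (SE 0.11, adjusted p = 1.25e-21, edgeR). Syt2 stood at 97.95, 185 and 313 CPM against 2.08, 2.85 and 7.64 CPM, a log2 difference of 5.48 (SE 0.19). PV and Sst pools did not overlap for either gene. Kcnip2 followed at 3.93, Gabrd at 3.32, the protease Prss23 at 5.83 and the sarcomere gene Tcap at 4.78 on the log2 scale. Sparcl1, Mef2c and Cox6a2 completed the 10 called genes with the smallest adjusted p, together with Kcnc1, all higher in 6 of 6 pools.

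Genes that were lower in PV than in Sst cells included the growth factor Ptn (-4.07), the NMDA receptor subunit Grin3a (-4.90), the phosphodiesterase Pde1a (-5.79), and neuronal nitric oxide synthase (Nos1, -4.49), each on the log2 scale and lower in 6 of 6 pools. Prodynorphin (Pdyn) and Calb2 had 1 and 2 UMIs in PV cells against 1121 and 953 in Sst cells, too few for a fold. Nos1 stood at 13.8, 48.7 and 77.8 CPM in PV cells and at 696.9, 944 and 1279 CPM in Sst cells. Fxyd6, Nnat, Pcp4 and 6330403K07Rik were lower in all 6 pools as well. The release factor Unc13c had no UMI in any PV pool and a median of 79.7 CPM in Sst cells, at least 64.7-fold lower against a floor of 3 counts over the group.

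Against Vip cells Tac1 led the genes that were higher. It was higher by 9.89 on the log2 scale, Nxph1, which encodes a ligand of neurexins, by 5.70, and the transcription factors Satb1 and Sox6 by 3.62 and 6.16. Lhx6 stood at 56.7, 105 and 150 CPM in PV cells and had 1 UMI in all Vip cells. Nek7, Gabrd, Cox6a2, Cacna2d2, Itpr1 and Kcnc2 were also among the top 10, at 3.45 to 5.40 for the first 5 and 2.59 for Kcnc2. Calb2, the stress peptide Crh, Penk, Rgs12 and the serotonin receptor channel Htr3a led the lower side. Penk and Rgs12 were at -7.99 and -5.14, and Calb2, Crh and Htr3a had 2, 3 and 1 UMIs in PV cells against 5563, 9461 and 2678 in Vip cells. They were followed by Asic4, Adra1b, Gpd1, Igf1 and Fxyd6. The 10 leading genes on each side differed the same way in 6 of 6 pools.

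**Figure D2:**
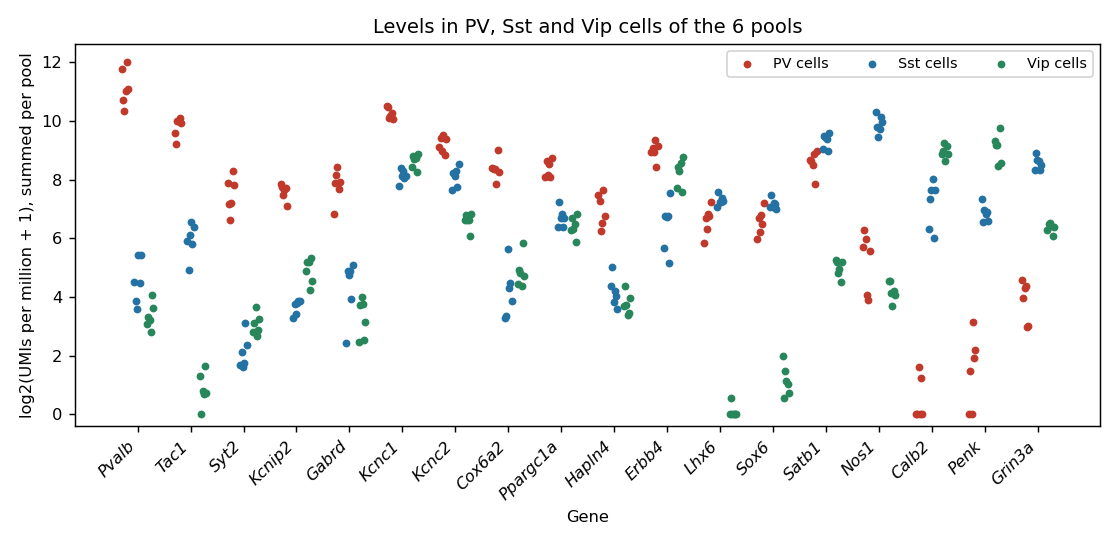
Level of 18 genes in PV (red), Sst (blue) and Vip (green) cells, as log2(CPM + 1) of the summed cells, with 1 point per pool and 6 pools per class. PV points lie above both other classes for genes such as Tac1, Syt2, Kcnc1 and Cox6a2 and below Sst points for Nos1 and Grin3a, and Pvalb is a gene of the selection rule.

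Counts of called list members from here on are to be read against the shares over all genes. These were 16.1% higher and 17.7% lower against Sst cells, and 20.7% higher and 22.3% lower against Vip cells. Potassium channels of fast-spiking cells were mostly higher in PV cells. Of 26 list members tested, 17 were higher and 7 lower than in Sst cells (median log2 difference 0.82, against -0.01 over all genes). Against Vip cells 17 were higher and 6 lower (median 1.34, against -0.02 over all genes). Kcnc1 stood at 1083, 1190 and 1451 CPM in PV cells against a median of 276 CPM in Sst and 421 CPM in Vip cells, log2 differences of 2.05 (SE 0.09) and 1.58 (SE 0.09). Kcnc2, the Kv3.2 channel, was higher by 1.02 and 2.59, and Kcna1, the axonal Kv1.1 channel, by 1.82 and 2.35. Kcnd3, of the A-type family, was among those lower in both comparisons, at -2.82 and -2.12.

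Sodium and HCN channels split by member. Against Sst cells 7 of 14 were higher and 5 lower (median 0.15), and against Vip cells 8 were higher and 4 lower (median 0.57). Scn1a, a sodium channel gene of the axon, was higher by 1.09 and 1.41. Scn2a was lower by both measures, at -1.91 and -1.90. Among calcium channels and buffers 3 of 19 were higher and 8 lower than in Sst cells (median -0.06), and 10 of 21 were higher and 10 lower than in Vip cells (median 0.02). The 3 of 19 are near the 16.1% of all genes that were higher than in Sst cells. The calcium release channel Itpr1 was the leading higher member in the first comparison at 2.07.

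Genes of the release machinery also differed in both directions. Of 24 members 9 were higher and 9 lower than in Sst cells (median -0.18), and of 22 members 12 were higher and 6 lower than in Vip cells (median 0.40). Cplx1, a complexin that clamps and drives fast fusion, was higher by 1.49 and 2.30, and Vamp1 by 1.79 against Sst cells. Cplx2 and Vamp2 were called lower in both comparisons, Cplx2 by -3.59 against Vip cells. Genes of GABA synthesis, uptake and reception were higher in 10 and lower in 4 of 19 against Sst cells (median 0.47) and higher in 12 and lower in 5 of 20 against Vip cells (median 0.39). Gabrd, given above, led both comparisons, at 3.32 and 4.56. Gabra2, Gabrb1 and Gabbr1 were lower in both.

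Glutamate receptors and their partners were lower in 12 and higher in 3 of 23 tested against Sst cells (median -0.35), and 9 were higher and 9 lower of 24 against Vip cells (median 0.04). Gria4, an AMPA receptor subunit with fast kinetics, was higher in both, by 1.05 (SE 0.14) and 1.24 (SE 0.12), as was the AMPA receptor partner Cacng2 by 1.11 and 0.95. Gria1 was higher by 1.24 against Vip cells. Grin3a, Grm7 and Nptx2 were lower in both, with Grm7, a metabotropic receptor, at -2.28 against Sst and -2.72 against Vip cells.

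The perineuronal net list had 14 of 24 members above the filter on low counts, of which 8 were higher and 3 lower than in Sst cells (median 0.97) and 10 higher and 4 lower than in Vip cells (median 1.32). Hapln4, a link protein of the net, stood at 75.03, 130 and 202 CPM in PV cells against 10.9, 16.5 and 31.8 CPM in Sst cells, with log2 differences of 2.74 and 3.23. Bcan, the proteoglycan brevican, was higher by 2.11 and 2.64 and Crtac1 by 1.41 and 3.04. Acan, the aggrecan core protein that defines the net, fell under the filter on low counts. It stood at a median of 8.07 CPM in PV cells against 0 CPM in Sst and 0.226 CPM in Vip cells, and was seen in 15 of 237 PV cells, 12 of which held Syt2. Timp2 and Timp3, inhibitors of matrix proteases, were lower in both comparisons.

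Erbb4, through which neuregulin shapes the input of PV cells, led the list of neurotrophin, neuregulin and adhesion genes against Sst cells, and Lgi2 led it against Vip cells. Erbb4 stood at 347, 514 and 657 CPM against medians of 106 CPM in Sst and 331 CPM in Vip cells, log2 differences of 2.35 (SE 0.13) and 0.68 (SE 0.08). The neurotrophin 3 receptor Ntrk3 was higher by 1.94 against Sst cells and the secreted protein Lgi2 by 1.68 and 1.74. Of 26 list members 12 were higher and 7 lower against Sst cells (median 0.08), and of 25 members 8 were higher and 9 lower against Vip cells (median -0.24). Nrxn2, Nrxn3 and Lgi1 were lower in both.

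Nuclear genes of mitochondrial energy metabolism were higher in PV cells nearly throughout. Of 26 tested, 24 were higher than in Sst cells and 0 lower (median 0.55), and all 26 were higher than in Vip cells (median 0.74). Ppargc1a, the coactivator PGC-1α that drives mitochondrial biogenesis, stood at 272, 327 and 431 CPM against medians of 103 CPM and 83.3 CPM, log2 differences of 1.57 (SE 0.10) and 1.95 (SE 0.09). Cox6a2 stood at 232, 330 and 514 CPM against medians of 16.2 CPM and 26.2 CPM, log2 differences of 3.87 (SE 0.19) and 3.45 (SE 0.11). The ATP synthase subunit Atp5b was higher by 0.83 against Sst cells, the citrate cycle enzyme Idh3a by 0.97 against Sst cells, and cytochrome c (Cycs) by 0.92 against Vip cells. Over 17 alternative settings the count of higher members was 17 to 24 against Sst cells and 23 to 26 against Vip cells, with 0 lower. The median share of mitochondrially encoded UMIs per cell was also higher in PV cells in 6 of 6 pools, at 2.17 to 5.11% against 1.55 to 3.20% in Sst and 1.21 to 2.73% in Vip cells, and its part in this result was not tested.

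Cytosolic ribosomal protein genes were lower nearly throughout, in 29 of 30 against Sst cells (median -0.46) and in 30 of 30 against Vip cells (median -0.51). Rpl10 fell by 1.00 and 0.89 on the log2 scale. Their levels also ranged widely over pools, for Rpl10 from 217 to 658 CPM in PV cells, and with no pool block 4 and 6 of the 30 were called, with medians of -0.51 and -0.55. Median depth per cell was above that of Sst cells in 4 of 6 pools and above that of Vip cells in 6 of 6, and its part was not tested.

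**Figure D3:**
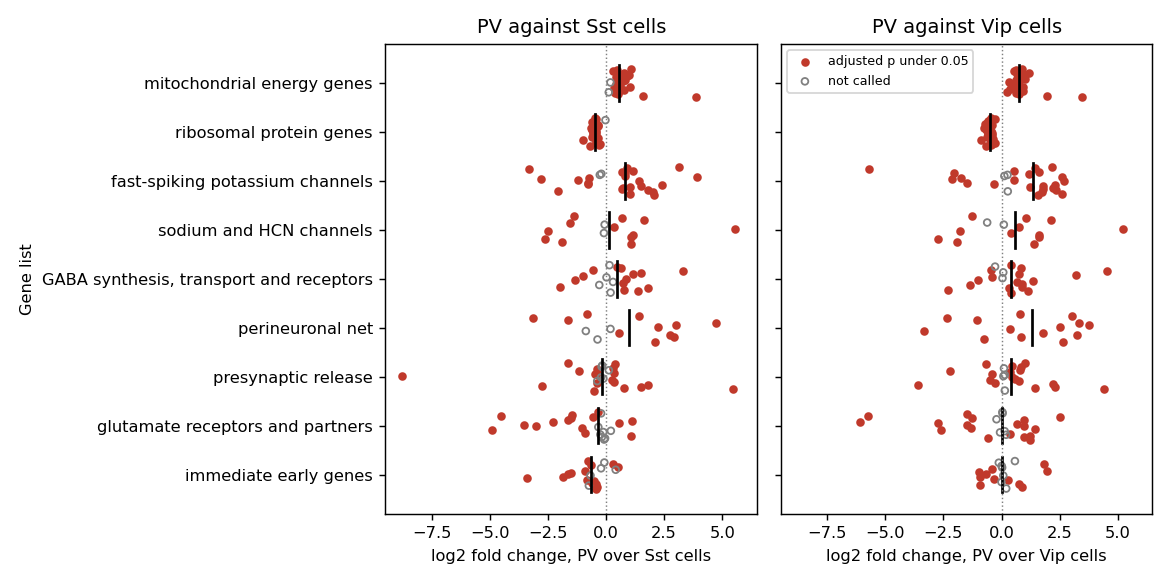
Log2 difference of each tested member of 9 gene lists, PV over Sst cells (left) and PV over Vip cells (right), 1 point per gene over 6 pools. Filled points had an adjusted p under 0.05, open points did not, and the black bar is the list's median. Mitochondrial genes lie to the right of 0 and ribosomal protein genes to the left in both panels, and the point farthest left is Unc13c, with no UMI in PV cells, whose fitted value depends on the prior count.

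Lineage transcription factors differed in level even where the origin is shared. Against Sst cells 4 of 18 were higher and 9 lower (median -0.20). Mef2c was the leading higher factor, at 1.78, while Lhx6 and Sox6 were lower by -0.73 (SE 0.12) and -0.68 (SE 0.13). Against Vip cells 7 of 19 were higher and 9 lower (median -0.18), with Prox1 at -7.03 on the lower side. Of peptides and subtype markers, 5 of 22 were higher and 14 lower than in Sst cells (median -2.09), and 9 of 21 were higher and 11 lower than in Vip cells (median -0.89). Pthlh was higher than in Sst cells by 5.93 (SE 0.35) and lower than in Vip cells.

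Neuromodulator receptors also separated the classes. Of 17 tested against Sst cells 4 were higher and 7 lower (median -0.03), and of 19 against Vip cells 5 were higher and 11 lower (median -1.11). Htr2a, Adora1 and Oprd1, which encode serotonin, adenosine and delta opioid receptors, were higher in both comparisons. The somatostatin receptor Sstr1 (1 UMI in PV and 189 in Sst cells), the oxytocin receptor Oxtr (-3.34) and Htr1a (-3.91) were lower against Sst cells. Chrm2, a muscarinic receptor, was higher by 5.30 against Vip cells and lower against Sst cells, and the neuropeptide Y receptor Npy1r was lower by -5.17 against Vip cells.

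Immediate early genes, transcribed within minutes of neuronal activity, were lower in PV than in Sst cells for 13 of 20 and higher for 2 (median -0.64). Against Vip cells 5 of 18 were higher and 6 lower (median 0.02). Fos stood at 181, 232 and 265 CPM in PV cells against 206, 326 and 339 CPM in Sst cells, a log2 difference of -0.45 (SE 0.09, adjusted p = 1.39e-04, edgeR), lower in 6 of 6 pools although the ranges overlapped. Egr1 differed by -0.81, Npas4 by -1.52, Arc by -1.64 and Junb by -0.61. Fos did not pass against Vip cells (0.20, adjusted p = 0.0728, edgeR), and Dusp1, a phosphatase gene induced by activity and stress, was higher there by 1.84. Of the 13 tested heat shock genes, which respond to dissociation, 1 was higher and 1 lower against Sst cells, and 7 were higher and 0 lower against Vip cells. Over all genes 33.9% were called against Sst cells and 43% against Vip cells, both directions together. Late activity-response genes were higher in 5 and lower in 7 of 16 against Sst cells and higher in 4 and lower in 9 of 16 against Vip cells, and Nptx2, which recruits AMPA receptors to PV cells from the presynaptic side, had 1 UMI in all PV pools together against 74 in Sst and 303 in Vip cells.

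Whether PV cells held the labelling transcript above background could not be settled here. After each cell was thinned to 2000 UMIs, 8 of 233 PV cells held a WPRE UMI, a mean over pools of 3.42% ± 3.87 (SD, n = 6). The mean was 6.95% ± 1.60 in glutamatergic neurons, 7.56% ± 3.99 in Sst cells and 6.39% ± 2.30 in Vip cells. Microglia, taken as a cell type that should lack the reporter, stood at 7.11% ± 1.42, a mean that neither PV cells nor glutamatergic neurons exceeded. Only 4777 of 10932 microglia reached 2000 UMIs, so thinning took less from them than from PV cells. Their share is therefore not a background of like depth, and it cannot show whether PV cells carried label. PV cells were below glutamatergic neurons by 3.52 percentage points (PV minus glutamatergic -3.52, exact sign-flip permutation p = 0.0938, two-sided, adjusted over 3 comparisons 0.141), and higher in 1 of 6 pools. They differed from Sst cells by -4.14 points (adjusted exact permutation p = 0.188) and from Vip cells by -2.97 points (adjusted exact permutation p = 0.141). Thinned to 1000 UMIs, 3 of 237 PV cells held a WPRE UMI, a mean of 1.10% ± 2.06 with late pool 2 the highest at 5.13%, against 4.54% ± 1.30 in glutamatergic neurons and 3.46% ± 0.999 in microglia. The smallest p that 6 pools allow is 0.0312. In the sums per pool, which carry the cells' full depth, edgeR's quasi-likelihood test called the WPRE feature (wpre) lower in PV than in Sst cells by -0.92 (adjusted p = 0.0112, called in 14 of 17 alternatives) and lower than in Vip cells by -1.24 (adjusted p = 3.24e-04, called in 17 of 17), each with PV cells higher in 1 of 6 pools. Without thinning the shares were 13.5% ± 4.69 in PV cells, 20.6% ± 6.30 in glutamatergic neurons, 22.6% ± 9.28 in Sst cells and 15.6% ± 5.52 in Vip cells. Microglia, whose median depth was 1869 UMIs, then stood at 6.67% ± 2.42.

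Between training stages few genes were called in PV cells. By batch label, control pool 1 went with late pool 1 and control pool 2 with early pool 1. Early pool 2 and late pool 2 were each the only motor cortex pool of their batch. Stage and batch were thus partly confounded, and the kit term does not separate them. With stage and kit class in the model, edgeR's quasi-likelihood test called 6 of 7161 genes in early against control pools (0.0838%), 5 higher (0.0698%) and 1 lower (0.014%). It called 2 in late against control (0.0279%), 1 higher and 1 lower, and 1 in late against early (0.014%), which was lower. An unadjusted p below 0.05 was reached by 399 (5.57%), 370 (5.17%) and 239 genes (3.34%). DESeq2 called 0 in each, with 66, 46 and 21 genes at an unadjusted p under 0.05. Leaving out any 1 pool gave 14 to 27, 12 to 42 and 2 to 28 calls, and with no kit term there were 0 in each. The comparisons share pools, and the fit had 2 residual degrees of freedom.

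Npy (GRCm38 chr6:49822710-49829507, plus strand) was the gene called lower in both trained stages. It stood at 1015 and 2076 CPM in the control pools, 452 and 401 CPM in the early pools and 471 and 200 CPM in the late pools. The control pools lay above all 4 trained pools. The log2 change was -1.83 in early (SE 0.33, adjusted p = 0.0225, edgeR) and -2.08 in late (SE 0.33, adjusted p = 0.0152, edgeR). Over 17 alternatives each, the early change was called in 10 and the late change in 11. At a Pvalb minimum of 3 UMIs neither was called, at -1.81 each (adjusted p = 0.0649 and 0.122, edgeR). The early call was also lost without marked doublets (-1.72, adjusted p = 0.101, edgeR) and with no Slc17a7 UMI (-1.37, adjusted p = 0.167, edgeR), and the late call with the stricter cell filter (-2.07, adjusted p = 0.0900, edgeR). Within the batch label shared by early 1 and control 2 the log2 ratio was -2.20, and within that shared by late 1 and control 1 it was -1.11. Few cells and 1 pool carried much of the signal. In control pool 2 the top 3 cells held 83.0% of its 1147 Npy UMIs. In the whole class 7 cells with 50 or more Npy UMIs held 61.4% of them, 3 in control 2, 2 in early 1 and 2 in late 1, and these 7 had a median of 5 Pvalb UMIs. Without control pool 2 the change was 0.06 in early (adjusted p = 0.988, edgeR) and -1.03 in late (adjusted p = 0.0958, edgeR). Without late pool 2 the late change was -1.01 (adjusted p = 0.152, edgeR). The share of PV cells with an Npy UMI was 54.2% (13 of 24) and 50% (19 of 38) in control, 43.8% and 37.1% in early and 43.5% and 30.8% in late pools.

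The 5 genes called higher in early pools are known as genes of microglia and other myeloid cells. C1qa, C1qb and C1qc, the chains of complement C1q, were apart between groups, and the chemokine gene Ccl4 was not. C1qb stood at 39.7 and 1.81 CPM in control, 79.2 and 59.0 CPM in early and 59.4 and 0 CPM in late pools. Its log2 change, set by the kit term largely from early pools against control pool 2, was 5.79 in early against control (SE 0.74, adjusted p = 9.98e-04, edgeR, 2.27 to 8.41 over 16 alternatives, 13 of which called it) and -5.26 in late against early (SE 0.82, adjusted p = 0.0194, edgeR). These calls rest on 53, 28, 43 and 32 UMIs of C1qb, C1qc, C1qa and Ccl4 in the early pools against 8, 2, 5 and 8 in the controls, and 1 cell of early pool 1 held 36 of its 38 C1qb UMIs. The pools high in these genes are those high in the microglial marker sum given above. Without the 14 cells that held 3 or more microglial UMIs, 0 genes were called in early against control (391 at an unadjusted p under 0.05) and 0 in late against early. The early change of Npy was then -1.79 (adjusted p = 0.199, edgeR), close to its value with those cells. The other called gene, CT010467.1 in late against control (4.27), was at 9.66 and 228 CPM in late pools against 11.3 and 7.24 CPM in controls, and at -0.15 without control pool 2 and -0.13 without late pool 2.

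Few genes were called between stages, and none from the lists of PV cell function. Against 0.0838%, 0.0279% and 0.014% of all genes, in each stage comparison 0 members of the lists of channels, release, GABA, glutamate receptor, perineuronal net, mitochondrial, ribosomal and immediate early genes passed the test, a share near that of all genes. Tac1 stood at 765 and 594 CPM in control, 1013 and 1026 CPM in early and 1091 and 980 CPM in late pools. Both trained groups lay above the controls, with log2 changes of 0.79 (SE 0.22, adjusted p = 0.541, edgeR) and 0.70 (SE 0.20, adjusted p = 0.561, edgeR). Calb1 stood at 16.7 and 35.4 CPM in early and 116 and 125 CPM in late pools (2.29, SE 0.44, adjusted p = 0.140, edgeR), with controls at 56.7 and 38.0 CPM. Syt2 in late against early pools was 0.89 (SE 0.29, adjusted p = 1.00, edgeR). Fos stood at 181 and 264 CPM in control, 265 and 220 CPM in early and 225 and 239 CPM in late pools, with changes of 0.04 (SE 0.25) and 0.14 (SE 0.24). Egr1 was -0.74 and -0.09, Junb 0.71 and 0.32, and Kcnc1 -0.24 and -0.24, none with an adjusted p under 0.05. With 2 pools a group these values do not show that the genes were level. Arc, Bdnf, Nptx2, Acan, WPRE and tdTomato were under the filter on low counts.

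**Figure D4:**
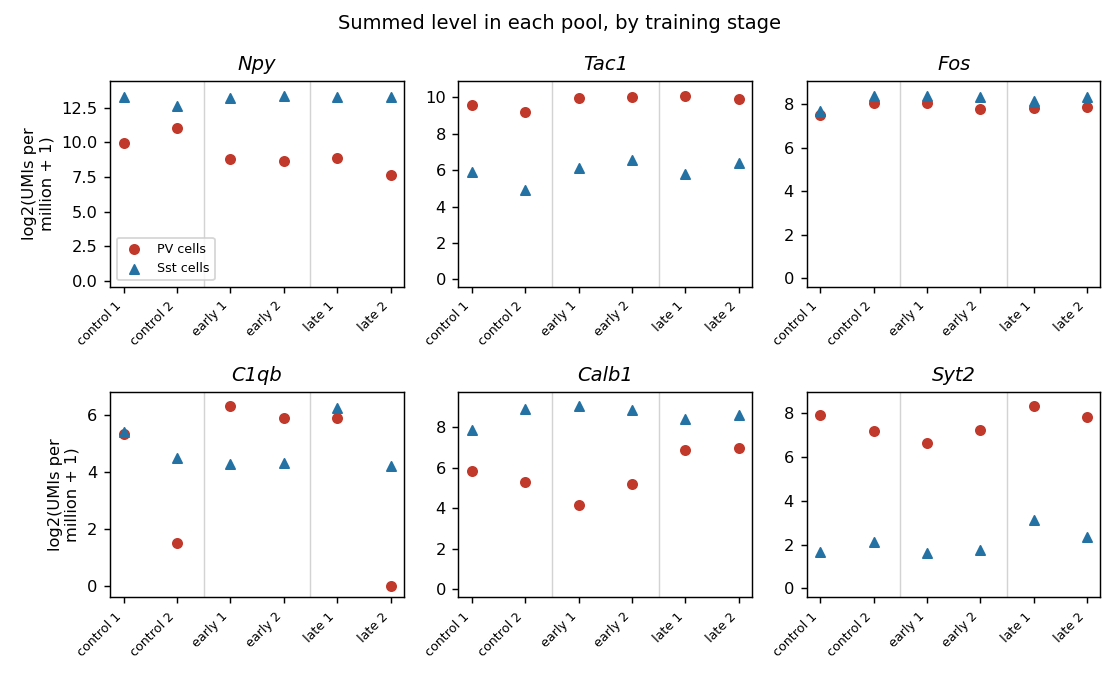
Summed level of 6 genes in PV cells (red circles) and Sst cells (blue triangles) of the 6 pools, ordered by training stage, as log2(CPM + 1). Npy in PV cells is at 1015 and 2076 CPM in the control pools and at most 471 CPM in the trained pools, while C1qb ranges from 0 to 79.2 CPM between pools of PV cells.

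The contralateral and ipsilateral libraries of each of the 4 trained pools were set against each other. edgeR's quasi-likelihood test called 6 of 5130 genes (0.117%), 2 higher in the contralateral hemisphere (0.039%) and 4 lower (0.078%), with 214 (4.17%) below an unadjusted p of 0.05, and DESeq2 called 0 (19 at an unadjusted p under 0.05). Cst3, which encodes cystatin C and is abundant in microglia and astrocytes, was lower contralaterally in 4 of 4 pools, by -0.79 (SE 0.14, adjusted p = 0.00613, edgeR). It was at 0.00 without cells of 3 or more microglial UMIs. Haemoglobin Hbb-bs (-4.71) had 529 of its 555 UMIs of late pool 1 in the ipsilateral library, and 1 cell held 92.4% of that pool's UMIs. Ccl4 was lower by -1.97 and C1qa by -2.53. With 1 pool left out Cst3 was called in 2 of 4 fits (-0.9999 to -0.67), Ccl4 in 2 of 3 (-1.98 to -1.78) and C1qa in 1 of 4. Without late pool 1, the fit that called C1qa, the contralateral libraries held none of its UMIs and its fitted value depends on the prior count, and in the other 3 fits it was -2.54 to -1.81. Npy was higher by 1.51 and Cnr1, the cannabinoid receptor, by 1.30, each in 3 of 4 pools. With 1 pool left out Npy was called in 0 of 4 fits (0.76 to 2.16) and Cnr1 in 1 of 4 (0.30 to 1.71). In early pool 1 a single cell held 72.3% of the Cnr1 UMIs. Tac1 was higher by 0.71 in 3 of 4 pools with an adjusted p of 0.224 (edgeR), and Fos was at -0.10.

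Whether stage acted differently in PV and Sst cells was tested with a class by stage term. edgeR's quasi-likelihood test called 13 of 9647 genes in the early contrast with control (0.135%), 9 of them positive (0.0933%) and 4 negative (0.0415%). In the late contrast it called 9 (0.0933%), 1 positive (0.0104%) and 8 negative (0.0829%). An unadjusted p below 0.05 was reached by 378 (3.92%) and 452 genes (4.69%), and DESeq2 called 0 and 0 (24 and 22 below an unadjusted p of 0.05). Without the cells of 3 or more microglial UMIs, positive calls in the early contrast went from 9 to 1, and without marked doublets also to 1. For Npy the change in PV minus that in Sst cells was -2.41 and -2.36 on the log2 scale. Sst cells held 10120 and 6373 CPM of Npy in control, 9547 and 10530 CPM in early and 9710 and 10080 CPM in late pools, so the term takes in a lower control pool 2 of Sst cells as well as the lower values of PV cells. For early against control the term for Cox6a2 was -2.17 (SE 0.42, adjusted p = 0.00193, edgeR), and -2.40 to -1.52 with 1 pool left out. Cox6a2 in PV cells stood at 335 and 331 CPM in control and 329 and 232 CPM in early pools. In Sst cells it went from low levels of 8.78 and 9.21 CPM in control to 49.2 (early 1) and 18.8 CPM (early 2). Without control pool 2 the term for Npy in early against control was 0.15.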

How the data were processed

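The deposited files hold raw UMI counts per gene and cell barcode for 12 motor cortex libraries, made by the authors with Cell Ranger 3.1.0 against GRCm38/mm10, per the submitters' processing notes. The counts carry no normalization. Members and gene lists were chosen with earlier results of these data known. Tac2 was used where a list named Tac3.

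Cells were gated as described above and their UMIs summed per pool, or per hemisphere of a pool. Sums were tested in R 4.3.3 with edgeR 4.0.16 (quasi-likelihood, TMM factors, filterByExpr), with an adjusted p threshold of 0.05 over all genes tested. Each SE of an edgeR log2 change was derived as its absolute value over the square root of the test's F statistic. It is not a standard error given by the fit. Stage fits carried the kit class read from barcode sharing (1.31, 0.261 and 0.0240 shared per 1000000 barcode pairs within the first class, within the second and between them). Class and hemisphere fits carried the pool as a block, since both members of a pair come from the same mice. The script was tested on simulated data. The 6 genes of the rule were left out of all tests, and some genes that the naming rule picked are not reported here.

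Library totals of 5260446 to 30470621 UMIs gave PV sums of 176371 to 724322 UMIs per pool, which limits low genes. Doublets were marked per library with Scrublet in scanpy 1.11.5 and kept. Intervals are Wilson 95% intervals for counting error only, and the limit for 0 cells is 3 counts of the total. Alternatives were other size factors (RLE), DESeq2 1.42.0 in place of edgeR, every gene with a UMI, no kit term, no pool block, other gates and cell filters, and each pool left out. A Pvalb minimum of 5 UMIs, removal of cells with 3 or more microglial UMIs and the use of 1 kit class were added after seeing the data.

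Named genes were up to 10 called genes with the smallest adjusted p per direction whose pools did not overlap or differed the same way in all pools, up to 4 members per list, and a constant set that includes Fos, Arc, Kcnc1, Syt2 and Tac1. Where fewer than 5 were called, the 5 genes with the smallest p were added. Other list members, cell shares, Calb1 shares, Lhx6 against Vip cells and Unc13c were named after their values were seen.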

Additional observations from a re-analysis of the deposited data

Results flagged for a closer look

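The difference between the early against control change in PV cells and that in Sst cells had an edgeR adjusted p under 0.05 for 13 genes. On the log2 scale, PV minus Sst, it was -2.41 for Npy, 5.71 for C1qb, 5.42 for Ccl4, 4.15 for Tac2, 5.48 for C1qa, 7.83 for C1qc and 5.16 for Selenop. It was -2.17 for Cox6a2, -3.92 for Fam46a, -3.38 for Kit, 6.87 for Csf1r, 2.34 for Nfkbia and 4.82 for Ctss. C1qa, C1qb, C1qc, Csf1r and Ctss are microglial genes, and positive calls numbered 9, against 1 without cells of 3 or more microglial UMIs and 1 without marked doublets. Tac2 stood at 106 CPM in PV cells of early pool 1 and at 5.67 CPM or less in the other 5 pools. Fam46a and Kit were highest in PV cells of control pool 2, at 48.9 and 77.8 CPM.

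For late against control the same difference was called for 9 genes. It was -2.36 for Npy, -4.98 for Hbb-bt, -1.64 for Cnr1, -3.66 for Nfib and -2.02 for Hspa1a. It was -2.74 for Spp1, -1.92 for Pcp4, -7.67 for Sema3c, which had no UMI in PV cells of the late pools so that the value depends on the prior count, and 0.86 for mt-Rnr1. Nfib in PV cells stood at 56.7 and 177 CPM in control pools, 112 and 94.4 CPM in early pools and 49.7 and 42.8 CPM in late pools, and in Sst cells at 0 and 6.70 CPM in control and 22.9 and 16.3 CPM in late pools.

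In 3 sets of 4 hemisphere libraries, 1 library stood far from the others, by the ratio of its gap to the nearest value over the whole range. The ratio was 0.984 for Hbb-bs in ipsilateral libraries, where late pool 1 was at 2073 CPM, 0.868 for Ccl4 in contralateral libraries and 1 for C1qa in contralateral libraries. The C1qa ratio follows from 3 libraries at 0 CPM. In all, 12 sets of 6 called genes were examined, and for values with a normal spread chance gives about 1 such set in 20.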

How the results depend on the processing

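Of 5502 values of single genes under alternative settings, 5022 kept their direction and side of the threshold, 211 lost the call, 69 gained it, 180 moved and 20 changed sign. Counts of called genes below are in the order early against control, late against control, late against early. They were 26, 32 and 17 with no filter on low counts, 0, 0 and 0 with DESeq2 or with no kit term, 20, 45 and 29 in the larger kit class alone, and 0, 5 and 0 without marked doublets. At a Pvalb minimum of 3 UMIs late against control and late against early gave 0 and 0, and at 5 UMIs 7 and 2. With no Slc17a7 UMI early against control gave 2 and late against early 0, with the stricter cell filter late against control gave 0, and without cells of 3 or more microglial UMIs early against control and late against early gave 0 and 0. Hemisphere calls were 24 with no filter, 0 with DESeq2, 0 with no pool block and 2 at either Pvalb minimum. With no pool block PV against Sst gave 1728 and PV against Vip 2466 calls, and DESeq2 gave 2026 for PV against Sst. Class by stage calls were 0 and 0 with DESeq2, 7 (early) with no kit term, 22 (late) in the larger kit class, 6 and 18 without doublets and 5 and 16 without microglia-rich cells. With 1 pool left out the counts ran from 14 to 27, 12 to 42 and 2 to 28 for stages, 1 to 7 for hemispheres, 2745 to 3095 and 3723 to 4309 for PV against Sst and Vip, and 9 to 18 and 9 to 22 for class by stage. The reporter differences ran from -4.92 to -2.58, -6.47 to -2.94 and -4.20 to -1.83 points (glutamatergic, Sst, Vip), and the PV share differences from -2.22 to -0.591, 0.211 to 5.49 and 1.61 to 6.89 points. Leaving out control pool 1 or late pool 1 leaves the smaller kit class with a single pool, so the stage contrasts then come from the larger class, with other genes passing the filter. Leaving out control pool 2 makes early against control, and leaving out late pool 2 makes late against early, rest on the kit term, while late against control is then late pool 1 against control pool 1. Without control pool 2 the sign changed for Npy early (0.064, range with 1 pool left out -2.22 to 0.064), CT010467.1 late (-0.145, range -0.145 to 4.99) and the early class by stage terms of Tac2 (-2.48, range -2.48 to 4.95), Npy (0.146, range -2.94 to 0.146), Fam46a (5.35, range -4.32 to 5.35) and Kit (4.40, range -5.09 to 4.40). Other sign changes were CT010467.1 in late against control without late pool 2 (-0.126) and Apoe in PV against Sst without late pool 1 (0.232, range -1.25 to 0.232). By hemisphere they were Hbb-bs at a Pvalb minimum of 5 (0.098) and Cst3 without microglia-rich cells (0.00029). The early class by stage term changed sign for Tac2 at a Pvalb minimum of 3 (-1.24) and for C1qa without doublets (-1.81). The late class by stage term of Hbb-bt was 3.48 with no Slc17a7 UMI, 1.66 without doublets, 2.57 without microglia-rich cells, 3.42 without control pool 1 and 3.24 without late pool 1 (range -4.98 to 3.42). That of Pcp4 was 0.867 in the larger kit class, 0.832 without control pool 1 and 0.859 without late pool 1 (range -2.81 to 0.859). The causes were not tested. No replicate numbers pair pools across stages, so no such block was fitted there.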

Other observations

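Lars2, a mitochondrial leucine tRNA ligase, and mt-Rnr1, the small ribosomal RNA of mitochondria, had the smallest p-values in late against control PV pools after the called genes, at log2 changes of 2.34 (adjusted p = 0.0675, edgeR) and 1.96. mt-Rnr1 stood at 238 and 588 CPM in control, 1415 and 2713 CPM in early and 352 and 3838 CPM in late pools, and at 119 to 2255 CPM in Sst cells of the same pools, whose order matched that of PV cells except for the lowest 2 pools.

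Cnr1 in PV cells was held by few cells in 2 pools. A single cell held 81.6% of the 365 Cnr1 UMIs of control pool 2 and another 72.3% of the 415 UMIs of early pool 1, and in the other 4 pools the top cell held 10.3% to 39.3%.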
